A study of Rattus norvegicus with 10 samples.

Results

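The core clock loop was described in tissue dissected from rat dams as the arcuate nucleus of the hypothalamus (ARC). The 10 genes taken were *Clock*, *Arntl*, *Npas2*, *Per1*, *Per2*, *Per3*, *Cry1*, *Cry2*, *Nr1d1* and *Nr1d2*. Members were taken by gene symbol, and all 10 had exactly 1 row among the 12828 rows of the authors' deposited table. The libraries came from 10 Wistar dams whose ARC was collected upon parturition. Of these, 5 dams had been fed a pregnancy diet with folic acid at 5 times the recommended level (5X-FA), and 5 had been fed [6S]-5-methyltetrahydrofolic acid at the same multiple (5X-MTHF). All dams therefore carried a high folate intake, and the libraries hold no group at the recommended level. The ARC was cut free hand from frozen coronal slices, and the dams were terminated after a daytime fast. The labels give no hour of collection for a dam. The light schedule and the length of the fast in the paper's methods narrow the time of day without fixing it. Transcripts of most of these genes rise and fall over the day.

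The diets were not compared here. The table's 10 per-sample columns are headed by bare numbers that match no sample label, so they were not assigned to dams and were not used. What follows are the authors' averages over all libraries, which have no spread between dams, together with the position of each gene and the sequence before its start site.

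In the mammalian clock, CLOCK or its paralog NPAS2 pairs with BMAL1, the product of *Arntl*, and the pair activates transcription through E-boxes. The Period and cryptochrome proteins are among its targets and return to the nucleus to repress it. The nuclear receptors REV-ERBα and REV-ERBβ, encoded by *Nr1d1* and *Nr1d2*, are targets as well, and they repress *Arntl* through ROR response elements, which the ROR receptors use as activators. A further input comes through D-boxes, bound by DBP, TEF and HLF and by the repressor NFIL3. The suprachiasmatic nucleus is the pacemaker of the brain, and most of the core loop genes also cycle in the ARC and in most other tissues.

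RefSeq promoter windows of the GRCr8 build were searched for these elements. Each window covers 250 bases before and 50 bases after a start site. Of the members, 9 matched a gene with windows, *Arntl* under its current symbol *Bmal1*, and *Cry1* had none. Both *Clock* and *Nr1d1* had 2 start sites, which gave 11 windows. The 5 sequences that follow hold the E-box, the E-box-like, the D-box and the ROR response element matches of the members, and are shown because they are the letters through which each arm of the loop is known to act. All read 5′ to 3′ on the gene's own strand and stop at the base before the start site, with the matches in capitals.
*Arntl*, chr1:176766078-176766327, plus strand, ROR response element: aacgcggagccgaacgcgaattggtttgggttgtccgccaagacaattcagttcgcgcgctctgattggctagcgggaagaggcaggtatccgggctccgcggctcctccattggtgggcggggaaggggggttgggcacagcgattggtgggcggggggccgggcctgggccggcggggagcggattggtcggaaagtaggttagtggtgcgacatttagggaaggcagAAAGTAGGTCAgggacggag
*Per2*, chr9:99496994-99497243, minus strand, D-box and then E-box-like element: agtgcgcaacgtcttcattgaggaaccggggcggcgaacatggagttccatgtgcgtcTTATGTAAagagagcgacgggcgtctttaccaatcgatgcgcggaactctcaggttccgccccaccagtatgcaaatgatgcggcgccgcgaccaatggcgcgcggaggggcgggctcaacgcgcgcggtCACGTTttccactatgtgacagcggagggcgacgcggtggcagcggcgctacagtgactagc
*Nr1d1*, first start, chr10:84231813-84232062, minus strand, E-box-like element: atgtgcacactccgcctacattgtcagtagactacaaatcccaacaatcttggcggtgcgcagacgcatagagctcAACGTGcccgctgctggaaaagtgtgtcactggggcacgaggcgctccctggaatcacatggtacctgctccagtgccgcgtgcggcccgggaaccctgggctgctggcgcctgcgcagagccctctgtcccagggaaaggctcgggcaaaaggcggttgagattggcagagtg
*Nr1d1*, other start, chr10:84229455-84229704, minus strand, E-box: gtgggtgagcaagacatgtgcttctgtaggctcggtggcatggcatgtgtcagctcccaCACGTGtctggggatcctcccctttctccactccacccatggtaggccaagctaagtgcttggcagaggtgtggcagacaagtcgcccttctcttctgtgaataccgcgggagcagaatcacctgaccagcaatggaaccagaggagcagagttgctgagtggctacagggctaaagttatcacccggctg
*Cry2*, chr3:98860438-98860687, minus strand, E-box-like element: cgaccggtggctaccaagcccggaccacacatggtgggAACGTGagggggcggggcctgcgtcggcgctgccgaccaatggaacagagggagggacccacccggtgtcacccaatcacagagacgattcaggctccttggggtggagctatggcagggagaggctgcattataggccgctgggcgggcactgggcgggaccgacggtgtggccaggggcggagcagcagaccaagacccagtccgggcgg

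The ROR response element, the site shared by the REV-ERB repressors and the ROR activators, was found in the *Arntl* window alone. It lay on the gene's strand from position -20 to -10, where -1 is the base before the start site. Over all 33469 windows of the RefSeq table, 0.356% held this element on either strand. Among the windows that matched genes of the authors' table, 0.182% did. Its last 6 letters are the receptor core AGGTCA, so that the 2 matches of *Arntl* overlap. The core alone was also found in the *Nr1d2* window, from -187 to -182. It is, however, a common word that 16.2% of all windows and 11.6% of the windows of the authors' genes held.

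The E-box CACGTG was found in 1 of the 11 windows. That was the window of the other *Nr1d1* start, which lies 2.36 kb downstream of the first, with the match from -191 to -186. The word is its own reverse complement and so lies on both strands. That single window makes 9.09% of the members' windows. The word was held by 6.42% of all windows and by 9.23% of the 10983 windows that matched genes of the table. A share that rests on 1 window of 11 does not set the members apart from either. The windows of the table's genes cover 76.2% of its rows, under the 80% set as a minimum, so their share is incomplete. No E-box was found in the windows of *Per1*, *Per2*, *Per3* or *Cry2*, which says only that these letters are not within these bases.

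The E-box-like word CACGTT, which differs from the E-box in its last letter, was found in the windows of *Per2*, *Cry2* and *Nr1d1*. In *Per2* it lay on the gene's strand from -62 to -57. In *Cry2* and at the first *Nr1d1* start it lay on the other strand, where it reads AACGTG on the strand printed, from -212 to -207 and from -174 to -169. These 3 of 11 windows make 27.3%, and 4.83% of all windows and 5.36% of the windows of the table's genes held the word. That share rests on 3 windows. None of the motif shares was tested or adjusted for the GC content of the windows. The *Per2* window also held the only D-box of the members, TTATGNAA, from -192 to -185, whereas 3.66% of all windows and 1.73% of those of the table's genes held one. The cAMP response element TGACGTCA was found in 0 of the 11 windows, in 1.83% of all windows and in 3.02% of those of the table's genes. The motifs were searched on both strands, the matches are letters and not measured binding, and no binding was assayed in these dams.

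**Figure D1:**
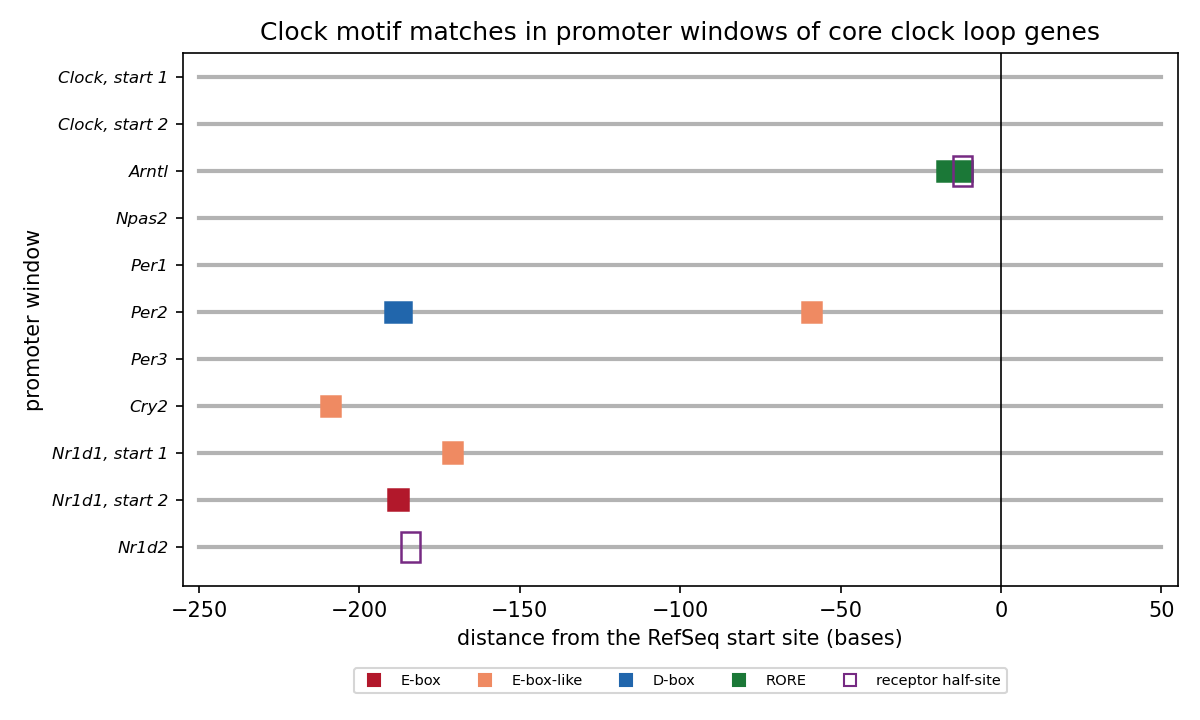
Matches to clock motifs in the 11 promoter windows of 9 core clock loop genes, with the distance from the RefSeq start site in bases on the horizontal axis and 1 grey line per window. Filled boxes are E-box, E-box-like, D-box and ROR response element (RORE) matches, and open boxes are the receptor core AGGTCA. The *Arntl* match lies next to the start site, from -20 to -10, while *Per2* holds matches at -62 and -192 and 5 windows hold none.

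The windows without any of the motifs were both windows of *Clock* and those of *Npas2*, *Per1* and *Per3*. The members' windows had a median GC content of 64.7%, and the median over all windows was 51.7%. The highest values were 74.7% at *Npas2* and 74.3% at the first *Clock* start. The other *Clock* start, 37.8 kb downstream, had the lowest value, 29.0%.

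Expression is given as the authors' average log2 CPM, a value on the log2 scale of counts scaled to library size, 1 per gene for all libraries together. It is not divided by transcript length, so it gives the share of reads that a gene took and not an order of mRNA copies. In a bulk sample, moreover, fewer cells of a type and less RNA per cell cannot be told apart. The authors labelled their table as filtered. The paper's methods describe a minimum number of reads per gene, but whether that filter made these rows is not given. Medians and percentiles are thus positions among the retained rows and not among all genes, and a gene without a row may have been filtered out. The average ran from -2.07 to 14.56 over all rows, with a median of 4.94 and quartiles of 3.65 and 6.18. All 10 clock genes were read in these libraries, with averages between 4.18 and 7.19 and a median of 5.75. By read share, 9 of the 10 stood above the median of all rows and 1 below it. When only the protein-coding rows were taken as the reference, 8 stood above it, because *Arntl* moved from percentile 51.0 to 49.6. The antilogs of the members' averages summed to 681 CPM.

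The activators took unequal shares of the reads. *Clock*, which encodes the bHLH-PAS partner of BMAL1, had an average of 7.07 log2 CPM, at percentile 87.8 of all rows. *Npas2*, which encodes its forebrain paralog, had 5.25, at percentile 56.3. *Arntl*, whose protein pairs with either of them, had 4.99. In antilogs these were 134, 38.1 and 31.9 CPM. *Clock* lies on chromosome 14 of Rnor_6.0 from 34446616 to 34502218 and *Arntl* on chromosome 1 from 178039063 to 178137465. *Npas2*, on chromosome 9 from 45901741 to 46081880, has the longest span of the members, 180 kb, and the median span of all rows was 21.5 kb.

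The Period genes, whose proteins bind casein kinase within the repressor complex, lay closer together. *Per3* had an average of 6.09 log2 CPM, at percentile 73.4. *Per1* had 5.50 and *Per2* had 5.40, at percentiles 61.7 and 59.5. Their antilogs were 68.2, 45.2 and 42.1 CPM, and no spread between dams was at hand to say whether neighbours in this order differ. *Per1* lies on chromosome 10 from 55687050 to 55695994, *Per2* on chromosome 9 from 98555169 to 98597359 and *Per3* on chromosome 5 from 168086998 to 168123395.

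The 2 cryptochrome genes, which encode the main repressors of CLOCK and BMAL1, stood apart in read share. *Cry2* had an average of 6.54 log2 CPM, at percentile 80.9. *Cry1* had 4.18, at percentile 34.4, and was the only member below the median of all rows. In antilogs these were 92.9 and 18.1 CPM. *Cry1* lies on chromosome 7 from 24534615 to 24634097, a span of 99.5 kb, and *Cry2* on chromosome 3 from 81314149 to 81344110, a span of 30.0 kb. As transcript lengths were not used, the gap between them is one of reads.

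The Rev-erb receptor genes form the arm of the loop that acts on *Arntl*. *Nr1d2* had the highest average of the 10 members, 7.19 log2 CPM, at percentile 89.0. *Nr1d1* was at percentile 71.5, and the antilogs of the 2 averages were 146 and 64.0 CPM. The 2 genes together thus took 210 CPM. The 3 activators summed to 204 CPM, the 3 Period genes to 155 CPM and the 2 cryptochrome genes to 111 CPM. These sums cover unequal numbers of genes, are not per length and have no spread between dams, so they give no order of the arms.

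**Figure D2:**
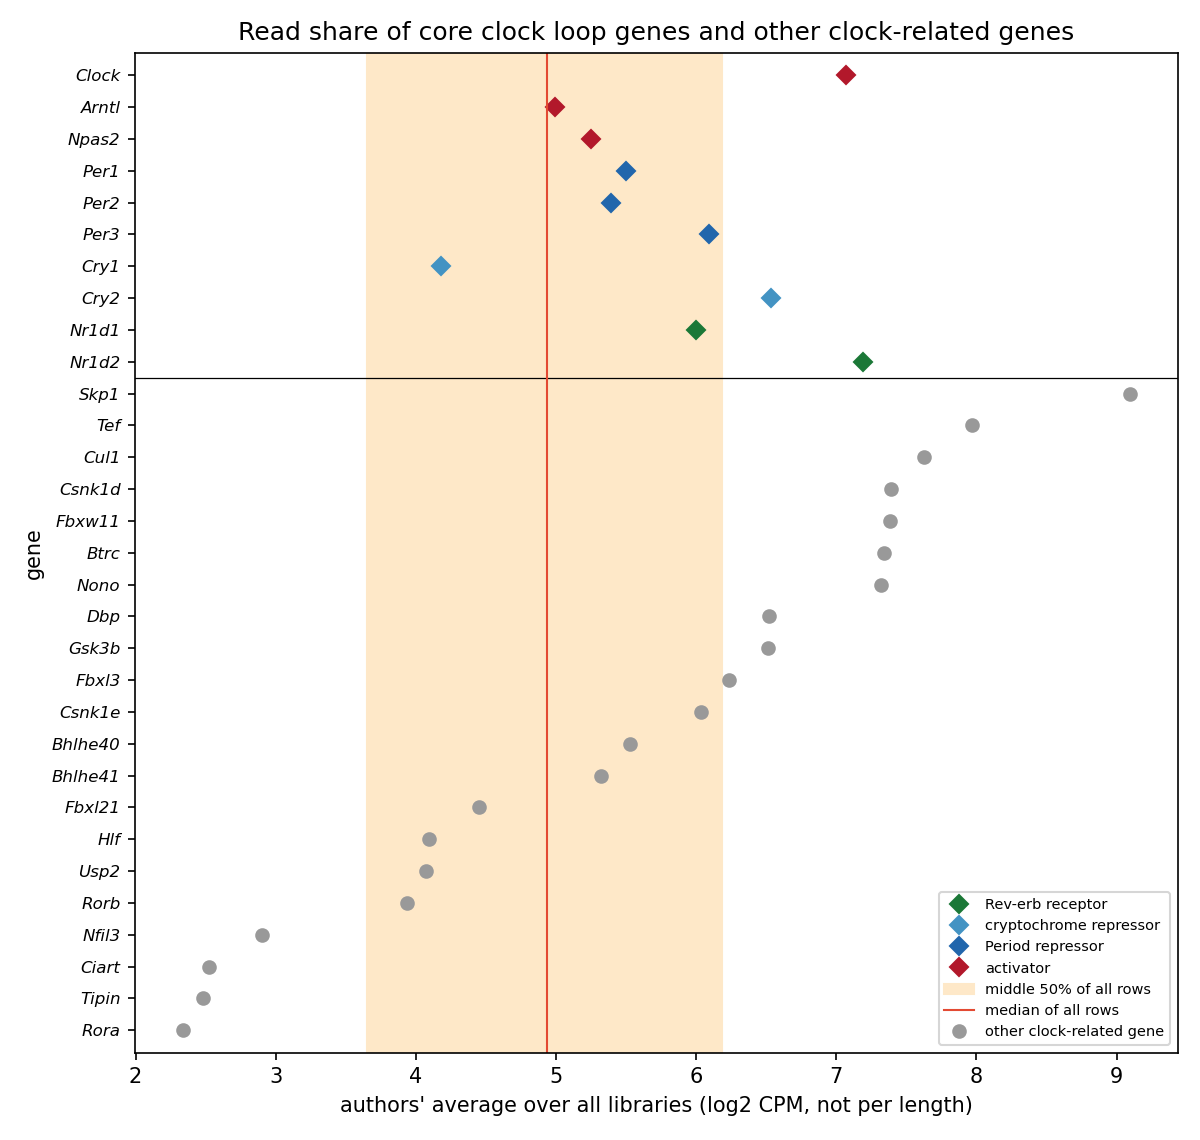
Authors' average over all libraries, in log2 CPM not divided by length, on the horizontal axis for the 10 core clock loop genes (diamonds, coloured by role) and 21 other clock-related genes (grey circles). The shaded band runs between the quartiles of all rows, 3.65 and 6.18, and the line marks their median, 4.94; each point is 1 pooled value with no error, and *Cry1* is the only diamond left of the line.

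*Nr1d1* was the one member whose span overlaps another row of the table. It lies on chromosome 10 of Rnor_6.0 from 86683875 to 86690815. *Thra*, which encodes thyroid hormone receptor alpha, lies from 86657285 to 86684933, so that the 2 spans share 1059 bases. *Thra* had an average of 8.33 log2 CPM and so took more reads than *Nr1d1*. The genes are known to lie on opposite strands. The methods describe a strand-specific library, but the strand setting of the counting is not given in the sources used here. Without strand, reads in the shared bases could not be told apart, and the value of *Nr1d1* is uncertain to that extent.

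**Figure D3:**
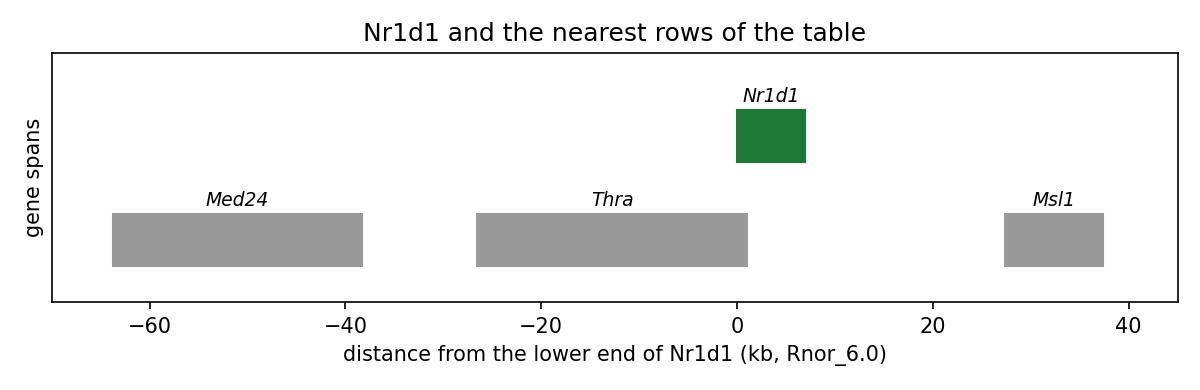
Gene spans around *Nr1d1* in Rnor_6.0, as distance in kb from the lower end of *Nr1d1* (green), with the nearest rows of the table in grey. The end of *Thra* lies inside *Nr1d1*, with 1059 shared bases, whereas *Med24* and *Msl1* do not reach it.

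The paralog *Nr1d2*, on chromosome 15 from 8730871 to 8757165, has the gene of the other thyroid hormone receptor, *Thrb*, as its next row at higher coordinates, 133412 bases away. Other close neighbours were *Tmem165*, 819 bases beyond *Clock*, and *Btbd10*, 1099 bases beyond *Arntl*. The 10 members lie on 8 chromosomes. *Per1* and *Nr1d1* share chromosome 10 at a distance of 31.0 Mb, and *Npas2* and *Per2* share chromosome 9 at a distance of 52.5 Mb.

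Of 23 other clock-related genes on a list of output factors, kinases, ubiquitin ligase parts and modulators, 21 had a row. Their averages ran from 2.34 to 9.10 log2 CPM with a median of 6.04, and 13 of them stood above the median of all rows. The 3 with the highest averages were *Skp1* (9.10), which encodes a subunit of SCF ubiquitin ligases, *Tef* (7.97), a D-box activator, and *Cul1* (7.62), the scaffold of those ligases. The 3 with the lowest were *Rora* (2.34), an activator at ROR response elements, *Tipin* (2.48), a partner of TIMELESS, and *Ciart* (2.53), a repressor of the BMAL1 complex.

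The dissection was checked against regional markers with the same averages. Of 8 ARC markers, 7 had a row and *Npy* had none. The averages of those 7 ran from 0.08 (*Kiss1*) to 6.02 log2 CPM (*Cartpt*), with a summed antilog of 122 CPM. Of 9 markers of the suprachiasmatic nucleus, 6 had a row and summed to 290 CPM, most of it from *Avp* (7.96 log2 CPM), the vasopressin gene, which other hypothalamic nuclei also express. *Vip* was at 3.51 and *Prok2* at -0.68 log2 CPM. All 7 striatal markers had a row, from 4.26 (*Adora2a*) to 7.07 log2 CPM (*Ppp1r1b*), and summed to 407 CPM, against 122 CPM for the ARC markers. The lists differ in length, the ARC sum lacks *Npy*, and expression of the markers in other regions was not examined. These sums therefore give no order of the regions. Of 6 cortical and hippocampal markers, 4 had a row and summed to 164 CPM. Most of that came from *Slc17a7* (7.17 log2 CPM), a vesicular glutamate transporter gene, while the other 3 were at 3.34 log2 CPM or lower. All 3 thalamic markers had a row, with a sum of 75.6 CPM. The 3 oligodendrocyte markers summed to 12010 CPM, the 3 astrocyte markers to 2029 CPM and the 3 microglial markers to 149 CPM. The clock gene values are thus those of the tissue as cut, and the part of each region or cell type in them was not tested.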

How the data were processed

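RNA-seq of the dissected ARC was carried out on 10 dams, 5 per diet as the sample titles give it. Per the paper's methods and the submitters' processing notes, the authors trimmed paired reads with Trim Galore 0.5.0, aligned them with STAR 2.6.0c to Rnor_6.0 with Ensembl gene models and counted genes with HTSeq 0.6.1p2. The values used are the average log2 CPM over all libraries in the authors' deposited table. Its antilogs sum to 1002152 over 12828 rows, which gives the log base. How the average was formed is not given in the sources used here. Another 10 per-sample columns match no label, and 4 columns hold the authors' own comparison of the diets, namely the log2 fold change, the F value, its p-value and the FDR. None of these 14 columns was used. The paper gives an approximate depth per sample, but the depth of each single library is not known here. No error could be given, and the planned tests between diets were replaced by description.

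Antilogs, ranks and percentiles (share of rows below a value) were computed over all rows, and over protein-coding rows (12383) or rows with an average of at least 1 (12462) as alternatives. Span, overlap and distance came from the table's positions, among its rows only. RefSeq promoter windows (GRCr8, 33469 windows of 27457 genes) were matched by symbol or synonym and searched on both strands. Of the table's rows, 76.2% matched a window, under the 80% set as a minimum. Shares over the windows of the table's genes are therefore incomplete and are given as description only. Calculations ran in Python 3.11.15 (scipy 1.17.1, pandas 2.3.3, numpy 2.4.6; figures with matplotlib 3.10.9), and the percentile and motif steps were tested on simulated data. The members and lists were chosen with earlier results of these data known. All 10 members are named, and of the other clock genes the 3 highest and 3 lowest. The neighbours and single markers named were chosen after their values were seen.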

Additional observations from a re-analysis of the deposited data

How the results depend on the processing

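No paired analysis was possible because the values used are averages over all libraries and carry no replicate number. For the same reason the checks intended for the diet comparison, namely other pseudocounts, a filter, a rescaling, other models and leaving out each dam in turn, were not run. The count of clock genes above the median read share was 9 over all rows, 8 over protein-coding rows and 8 over rows whose average log2 CPM was 1 or more. All 10 percentiles were lower under both alternatives, by the most for *Cry1*, which stood at 34.4 over all rows, 32.7 over protein-coding rows and 32.5 over rows whose average was 1 or more. The share of the members' windows with an E-box was 9.09% in the whole windows and 9.09% in the 250 bases before the start site, and that of all windows was 6.42% and 5.59%. With 1 pooled value per gene, the depth and the spread between dams set no limit that can be stated here.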
